A study of Mus musculus with 18 samples.

Results

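The 10 genes described here encode core parts of cellular energy and nutrient sensing: the AMPK subunits Prkaa1, Prkaa2 and Prkab1 and the upstream kinase Stk11, the deacetylases Sirt1 and Sirt3, the kinase Mtor with its partners Rptor and Rictor, and the autophagy kinase Ulk1. They were taken by gene symbol from the array's platform annotation, which gives each of them 1 probe set, and they are 10 of 22180 genes with a symbol of their own. Their levels came from 18 mouse arrays, 1 per biological replicate, on small intestine and liver. All recipients were C57BL/6 mice raised germ-free until 5 to 6 weeks of age, then given gut microbiota by transfer and kept for 8 weeks. For the OMT group the donors were aged, at about 24 months. The YMT group had young donors, whose age the labels give as 4 weeks in one place and 5 to 6 weeks in another. Each tissue had 5 OMT and 4 YMT arrays, from recipients said to be 12 or 13 weeks old. The number of donors and cages is not given in the sources used here, so a shared donor or cage cannot be told apart from donor age, and p-values measure only how recipients differed from each other. No conventionally raised or germ-free control was analysed here.

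AMPK is a heterotrimeric kinase that is switched on when AMP rises and ATP falls, and in liver it restrains lipid synthesis and favours fatty acid oxidation. SIRT1 and SIRT3 remove acetyl groups at the cost of NAD, SIRT1 mainly in the nucleus and SIRT3 in mitochondria. mTOR acts in a complex with raptor that senses amino acids and insulin and promotes growth, and in another with rictor that phosphorylates AKT. ULK1 starts autophagy, and AMPK activates it while mTOR holds it back. These proteins are controlled largely by phosphorylation and by NAD, which arrays do not measure: the values below are transcript levels. The question was whether these sensors differed in liver and intestine with the age of the microbiota donor.

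The 3 genes that passed the test in liver were Ulk1, Prkaa2 and Mtor, and their upstream sequences are shown because their levels moved the same way. Sirt1, which did not pass, is shown beside them because its window held E-boxes. RefSeq (assembly GRCm38.p6) gives 250 bases before a transcript start, and the stretch printed is the part of these that lies outside the annotated gene. For Prkaa2, Mtor and Sirt1 that is the whole 250 bases. For Ulk1 it is 211 bases, because 39 bases before the start used lie inside the annotated gene. The sequences are written 5′ to 3′ on the gene's strand, with the matches described below in capitals.
Ulk1, chr5:110810121-110810331, minus strand: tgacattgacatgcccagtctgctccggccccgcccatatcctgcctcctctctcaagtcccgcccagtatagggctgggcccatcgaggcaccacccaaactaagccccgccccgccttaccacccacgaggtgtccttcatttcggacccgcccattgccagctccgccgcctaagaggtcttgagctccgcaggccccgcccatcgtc
Prkaa2, chr4:105109899-105110148, minus strand: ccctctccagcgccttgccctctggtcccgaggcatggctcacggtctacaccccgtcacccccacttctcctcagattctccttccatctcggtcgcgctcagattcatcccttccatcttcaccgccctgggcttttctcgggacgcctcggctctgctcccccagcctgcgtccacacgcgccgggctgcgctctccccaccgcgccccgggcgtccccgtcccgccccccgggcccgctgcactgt
Mtor, chr4:148448332-148448581, plus strand: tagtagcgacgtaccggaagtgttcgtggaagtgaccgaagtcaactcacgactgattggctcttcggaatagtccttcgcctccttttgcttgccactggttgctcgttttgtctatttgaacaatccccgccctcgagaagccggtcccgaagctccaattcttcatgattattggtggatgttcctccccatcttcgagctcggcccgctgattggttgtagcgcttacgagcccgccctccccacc
Sirt1, chr10:63339036-63339285, minus strand: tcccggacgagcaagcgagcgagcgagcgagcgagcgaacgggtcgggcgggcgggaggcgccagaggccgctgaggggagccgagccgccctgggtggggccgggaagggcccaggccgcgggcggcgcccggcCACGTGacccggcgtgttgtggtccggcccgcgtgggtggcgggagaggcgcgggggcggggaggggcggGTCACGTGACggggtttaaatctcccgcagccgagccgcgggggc

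RefSeq promoter windows, 300 bases long with 50 of them after the start, were found for all 10 genes, with a second window for Sirt3. Both strands were searched for 5 motifs. These were the E-box CACGTG, the lysosomal CLEAR motif, which contains an E-box, the forkhead motif TGTTTAC, the cyclic AMP response element TGACGTCA and the nuclear receptor motif AGGTCA. Of 32851 windows, 7.15% held the E-box, 0.326% the CLEAR motif, 3.65% the forkhead motif, 1.79% the cyclic AMP element and 16.3% the nuclear receptor motif. None of these letters occurred in the windows of Ulk1, Prkaa2 and Mtor. The Sirt1 window held an E-box that begins 115 bases before the start and another that begins 43 bases before it, the latter inside a CLEAR motif. The Stk11 window held a forkhead match on the minus strand at base 17 after the transcript start used for the window, which is base 45 of the annotated gene. Such matches describe the letters only and show nothing of binding.

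The tissue labels held: albumin (Alb) lay between 13.21 and 13.26 on the liver arrays and between 3.67 and 4.68 on the intestine arrays, and villin (Vil1) between 3.77 and 4.29 and between 11.97 and 12.27. No arrays held identical values. Among the OMT livers, replicates 1 and 2 stood apart in Fgf21, a hormone of the fasted liver, at 4.88 and 4.53 against 7.28, 8.31 and 8.17 on the others. The YMT livers read 4.64 to 4.98, so these 2 were the OMT livers most like them in Fgf21. Among the OMT intestines replicates 1 and 2 had the highest array medians over all probe sets, 4.51 on each against 4.42 to 4.46 on the other OMT and 4.39 to 4.45 on the YMT arrays. Several members are therefore also given without these arrays. All 10 genes lay above the array median on all 9 arrays of each tissue, so the level filter left none out. Levels are log2 array values and differences are OMT minus YMT on the log2 scale. A pattern of 1 probe set cannot be checked against another for these genes.

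In liver, 3 of the 10 genes fell in OMT recipients at an adjusted p under 0.05 and none rose, where 19.2% of the 13380 genes tested were called in either direction, 10.4% higher and 8.78% lower. With so few genes, 3 of 10 against this background is given as a count only. Ulk1 fell 3.29-fold, Prkaa2 1.48-fold and Mtor 1.27-fold. The other 7, Prkaa1, Prkab1, Stk11, Sirt1, Sirt3, Rptor and Rictor, did not pass. The median difference of the 10 was -0.11, beside -0.005 over all genes tested. Over all genes, 54.2% of the calls were rises, and 43.7% after quantile normalization within the tissue.

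**Figure D1:**
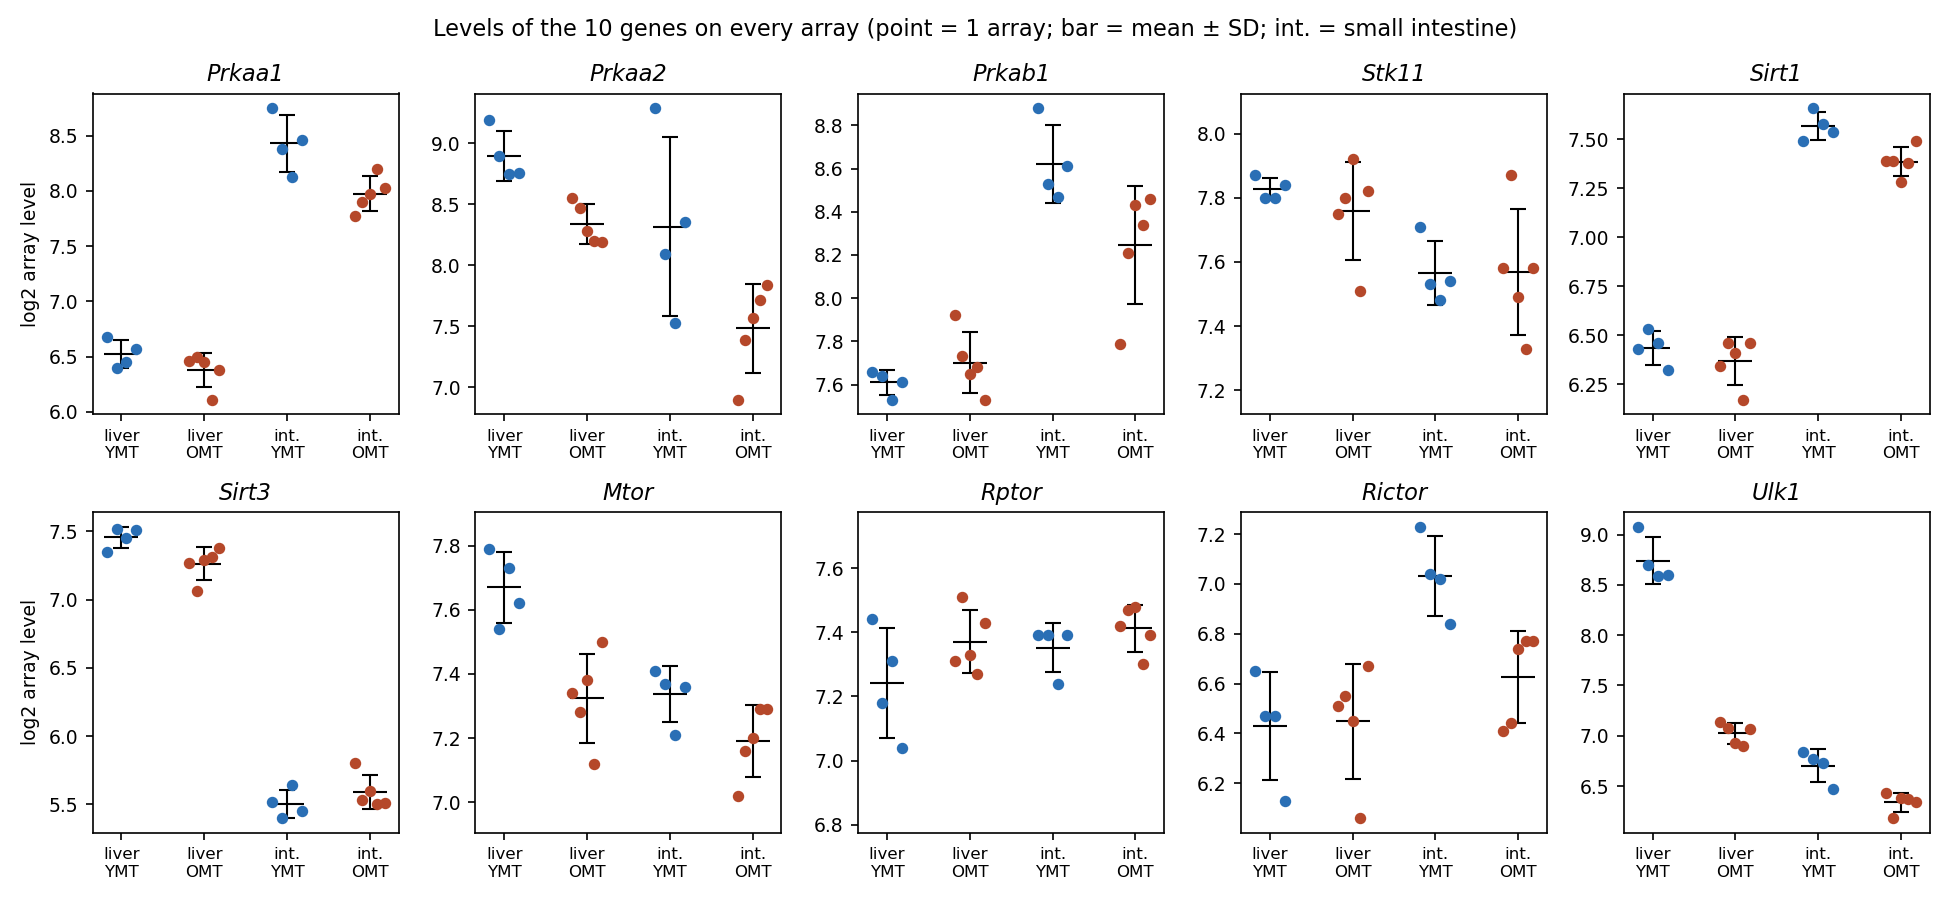
Log2 array level (y axis) of each of the 10 genes in its own panel, with 1 point per array, for YMT (blue) and OMT (red) recipients in liver and small intestine (int.); bars give the mean and SD of 4 YMT or 5 OMT arrays, and each panel has its own range that does not start at 0. In liver the Ulk1 points of OMT (6.90 to 7.14) and YMT (8.59 to 9.08) lie far apart, while those of Sirt1 overlap.

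Ulk1 (probe set 17451140), the kinase that starts autophagosome formation, read 7.14, 7.08, 6.93, 6.90 and 7.07 in the 5 OMT livers and 9.08, 8.70, 8.59 and 8.60 in the 4 YMT livers. Every OMT liver lay more than 1 log2 unit below every YMT liver, and the spread within either group was small. The means were 7.02 ± 0.10 (SD, n = 5) and 8.74 ± 0.23 (SD, n = 4), a difference of -1.72 ± 0.11 (SE), and the limma test gave an adjusted p of 6.85e-06. By p-value Ulk1 stood at place 11 of the 13380 genes tested in liver. Without OMT replicates 1 and 2 the difference was -1.78 (adjusted p = 5.91e-05, limma). Those were the OMT livers nearest to the YMT range for Ulk1, so leaving them out could only widen the difference and is no test of its strength.

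Prkaa2 (probe set 17427746) encodes the alpha2 catalytic subunit of AMPK. It read 8.55, 8.47, 8.28, 8.20 and 8.19 in OMT livers and 9.19, 8.90, 8.75 and 8.76 in YMT livers. The groups did not overlap, and OMT replicates 1 and 2 were the OMT livers nearest to the YMT range. The difference was -0.56 ± 0.11 (adjusted p = 0.00609, limma), and without those 2 livers it was -0.68 (adjusted p = 0.00456). With the intestine arrays in the same fit, which then share 1 estimate of the spread, the adjusted p was 0.121 at the same difference. Prkaa1, the alpha1 catalytic subunit, lay between 6.11 and 6.50 in OMT and between 6.4 and 6.68 in YMT livers, a difference of -0.15 ± 0.10 (adjusted p = 0.328) with a 95% interval from -0.36 to 0.07.

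The beta1 subunit Prkab1, which tethers the catalytic and regulatory subunits, lay between 7.53 and 7.92 in OMT and between 7.53 and 7.66 in YMT livers (0.092 ± 0.083). Stk11 encodes LKB1, the kinase that phosphorylates AMPK in liver. Its OMT livers spread from 7.51 to 7.92 around YMT values of 7.80 to 7.87, and the difference was -0.068 ± 0.084. For both genes the ranges of the donor groups overlapped, and adjusted p was 0.483 and 0.624 (limma).

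Sirt1 read 6.34, 6.46, 6.41, 6.17 and 6.46 in OMT livers and 6.43, 6.53, 6.46 and 6.32 in YMT livers. The groups overlapped over most of their range. The difference was -0.067 ± 0.080 (adjusted p = 0.609, limma), and its 95% interval ran from -0.24 to 0.11. Sirt3, the main mitochondrial deacetylase, read 7.27, 7.06, 7.29, 7.31 and 7.38 in OMT and 7.35, 7.52, 7.45 and 7.51 in YMT livers. Of the OMT livers, 4 lay below every YMT liver. The difference of -0.20 ± 0.08 had a p of 0.0308 before adjustment and 0.11 after it (limma), and did not pass. Without OMT replicates 1 and 2 it was -0.13 (adjusted p = 0.299, limma).

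Mtor (probe set 17421600), the kinase shared by both mTOR complexes, read 7.34, 7.28, 7.38, 7.12 and 7.50 in OMT livers and 7.79, 7.54, 7.73 and 7.62 in YMT livers. The groups did not overlap, though only 0.04 separates 7.50 from 7.54, and the difference of -0.35 ± 0.09 passed (adjusted p = 0.02, limma). This call rests on single arrays: it is lost without YMT replicate 1 (-0.31, adjusted p = 0.0563), without YMT replicate 3 (-0.33, adjusted p = 0.0558) and without OMT replicates 1 and 2 together (-0.34, adjusted p = 0.0682). The difference itself changed little in these fits. Rptor, the scaffold that recruits mTORC1 substrates, lay between 7.27 and 7.51 in OMT and between 7.04 and 7.44 in YMT livers (0.13 ± 0.09, adjusted p = 0.369). Rictor, the scaffold of the other complex, ranged from 6.06 to 6.67 and from 6.13 to 6.65 (0.018 ± 0.134, adjusted p = 0.943).

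Markers of some other liver cells were also lower in OMT livers, where 8.78% of all genes tested were called lower. Of 6 endothelial markers 4 fell in OMT livers, and their mean level was 6.65 to 6.97 on OMT and 7.14 to 7.54 on YMT arrays. Of 6 stellate cell and fibroblast markers 5 fell, with mean levels of 6.03 to 6.37 and 6.70 to 7.08, and of 6 smooth muscle markers 2 fell (4.76 to 4.97 and 4.96 to 5.27). None of the 8 hepatocyte markers passed, with ranges of 11.47 to 11.62 and 11.49 to 11.56. Of 6 macrophage markers 1 rose and 1 fell (6.63 to 7.0 and 6.66 to 6.78). The part of these markers in the falls of Ulk1, Prkaa2 and Mtor was not tested, and in whole tissue fewer cells of a type and less RNA per cell cannot be told apart. Fgf21 lay between 4.53 and 8.31 in OMT and between 4.64 and 4.98 in YMT livers and did not pass (adjusted p = 0.119, limma).

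**Figure D2:**
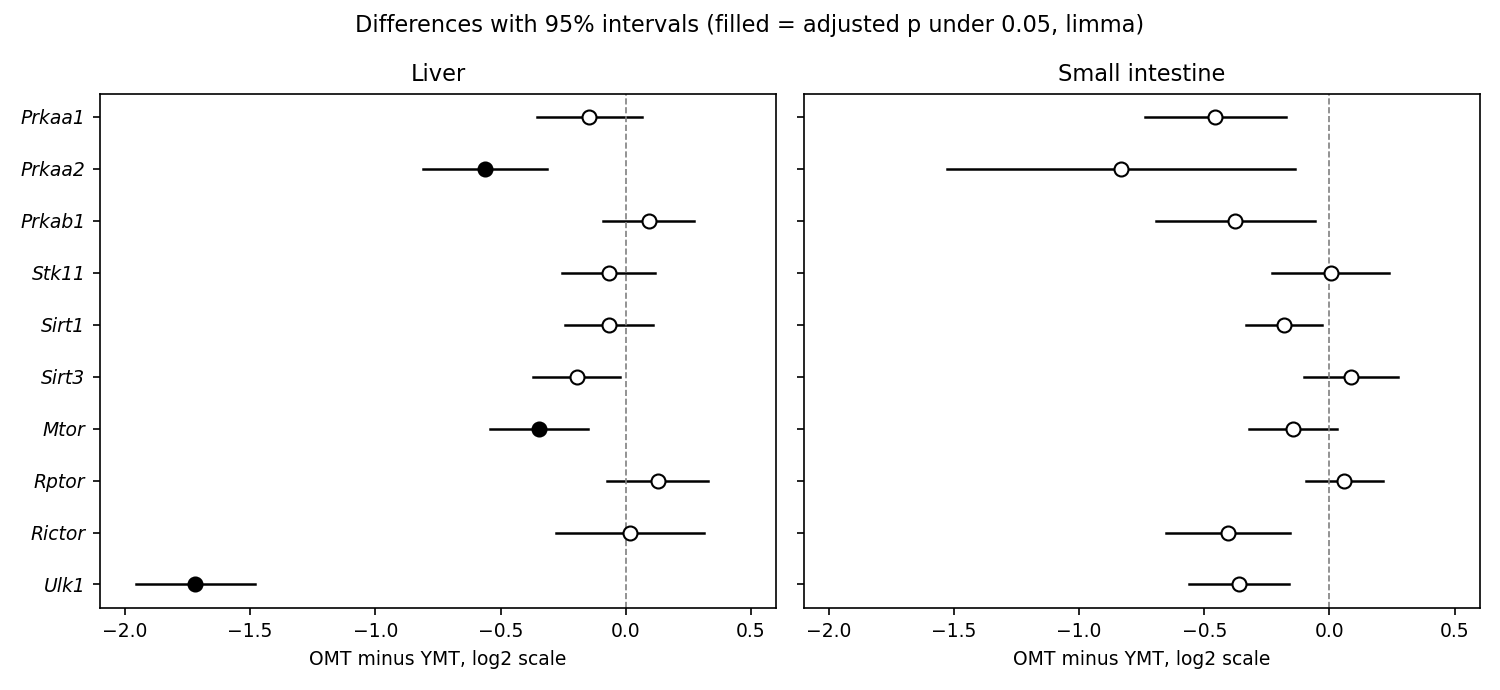
Difference of OMT minus YMT on the log2 scale (x axis) for each gene in liver (left) and small intestine (right), with the 95% interval from limma as a line; filled points passed an adjusted p of 0.05. Ulk1 (-1.72), Prkaa2 (-0.56) and Mtor (-0.35) are filled in liver and no gene is filled in intestine.

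In the small intestine none of the 10 genes passed (limma), where 4.14% of the 13238 genes tested were called, 1.04% higher and 3.1% lower. At an unadjusted p under 0.05, 6 of the 10 were lower in OMT and none higher, against 22.8% of all genes in either direction. The median difference of the 10 was -0.27, beside -0.022 over all genes. The smallest adjusted p-values were those of Ulk1 (0.0523), Rictor (0.0663) and Prkaa1 (0.0696), and all 3 passed when genes were filtered at the 75th percentile of the array or when arrays were weighted by quality. With all 18 arrays in the fit these 3 and Prkaa2 passed. For Ulk1, Rictor and Prkaa1 adjusted p was 0.138, 0.201 and 0.243 without OMT replicates 1 and 2 together. The count of calls over all genes, 548, fell to 227 without OMT replicate 2, 276 without OMT replicate 3, 286 without YMT replicate 1, 150 without YMT replicate 2 and 238 without YMT replicate 4, so the background share itself depends on single arrays. Of the 548 calls 25.2% were rises, and 42.7% after centring each array on the median of the genes tested.

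Ulk1 read 6.43, 6.18, 6.38, 6.37 and 6.34 in OMT and 6.84, 6.77, 6.73 and 6.47 in YMT intestines. The groups did not overlap, with YMT replicate 4 nearest to the OMT range. The difference was -0.36 ± 0.09, and without YMT replicate 4 it was -0.44 (adjusted p = 0.0347, limma). Without OMT replicates 1 and 2 it was -0.34 (adjusted p = 0.138). With each array centred on the median of the genes tested it was -0.285 (adjusted p = 0.111). Rictor read 6.41, 6.44, 6.74, 6.77 and 6.77 against 7.23, 7.04, 7.02 and 6.84, again without overlap, a difference of -0.41 ± 0.11. OMT replicates 1 and 2 were its lowest arrays, and without them the difference was -0.27 (adjusted p = 0.201). Without the same arrays Prkaa2 went from -0.83 to -0.61, Prkab1 from -0.38 to -0.21 and Mtor from -0.15 to -0.08.

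Among the AMPK subunits, Prkaa1 read 7.77, 7.90, 7.97, 8.20 and 8.03 in OMT and 8.75, 8.38, 8.13 and 8.46 in YMT intestines. Only OMT replicate 4 reached the YMT range, and the difference was -0.46 ± 0.13. It passed without YMT replicate 3 (-0.56, adjusted p = 0.0435, limma), the YMT array with the lowest value. Without OMT replicates 1 and 2 the difference was -0.36 (adjusted p = 0.243). Prkaa2 had the widest spread of the 10 genes, reading 6.90, 7.39, 7.57, 7.72 and 7.84 in OMT and 9.29, 8.09, 7.53 and 8.36 in YMT intestines. YMT replicate 3 lay below 3 of the OMT intestines, and the difference of -0.83 ± 0.31 did not pass (adjusted p = 0.15). Without YMT replicate 1 it was -0.51 (adjusted p = 0.291). Prkab1 ranged from 7.79 to 8.46 in OMT and from 8.47 to 8.88 in YMT, ranges that only just did not overlap (-0.38 ± 0.14, adjusted p = 0.153). Stk11 showed no detectable difference (0.005 ± 0.106, 95% interval -0.23 to 0.24).

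Sirt1 read 7.39, 7.39, 7.28, 7.38 and 7.49 in OMT and 7.49, 7.66, 7.58 and 7.54 in YMT intestines. The ranges met at 7.49, and the difference of -0.18 ± 0.07 did not pass (adjusted p = 0.151, limma). Sirt3 was dimmer here, between 5.40 and 5.80 on all 9 arrays (0.086 ± 0.085). Mtor ranged from 7.02 to 7.29 and from 7.21 to 7.41 (-0.15 ± 0.08), and Rptor from 7.30 to 7.48 and from 7.24 to 7.39 (0.060 ± 0.069). Neither passed, at adjusted p of 0.298 and 0.64.

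Groups that did not overlap were found for 3 of the 10 genes in liver (Ulk1, Prkaa2 and Mtor) and 3 in intestine (Ulk1, Rictor and Prkab1), where 18.1% (9.64% higher and 8.51% lower) and 9.65% (2.8% higher and 6.84% lower) of all genes tested did not overlap. All 6 lay lower in OMT. Of the markers of other cells in the intestine, 2 of 5 T and NK cell markers fell in OMT (mean level 7.14 to 7.91, against 7.97 to 8.66 in YMT) and 1 of 6 goblet cell markers fell (10.29 to 10.75, against 10.81 to 11.05), while no marker of enterocytes, Paneth cells, macrophages, smooth muscle, endothelium or fibroblasts passed. The part of these markers in the values above was not tested.

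The arrays that set the extremes were partly the same from gene to gene. YMT replicate 1 gave the highest value of its group for 8 of the 10 genes in intestine, 1 of them tied, and for 8 of 10 in liver, and the genes were the same: Prkaa1, Prkaa2, Prkab1, Stk11, Mtor, Rptor, Rictor and Ulk1. The labels do not say whether a liver and an intestine of the same number came from 1 animal. OMT replicate 4 gave the lowest value among OMT livers for 7 genes, and OMT replicate 1 the lowest among OMT intestines for 5, namely Prkaa1, Prkaa2, Prkab1, Mtor and Rictor. The 10 values on an array should therefore not be taken as independent of each other. Extremes were not counted over all genes tested, so this cannot be called particular to the 10.

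The difference between donor groups was unequal in liver and intestine for 1 of the 10 genes, Ulk1, where 11.9% of the 11965 genes tested in both tissues were called, 7.91% with the higher and 4.04% with the lower difference in liver. Its fall was larger in liver by -1.36 ± 0.14 (adjusted p = 7.83e-06, limma on all 18 arrays). This fit treats the 18 arrays as independent, so its p-values take no account of animals that may be shared between the tissues. Prkab1, at 0.092 in liver and -0.38 in intestine, was next (0.47 ± 0.17, adjusted p = 0.0765), and Rictor was at 0.42 ± 0.18 (adjusted p = 0.131). Rictor passed without liver OMT replicate 4 (0.52, adjusted p = 0.0414). For Prkaa2 and Mtor, called in liver alone, the test of the difference between tissues gave 0.27 ± 0.35 and -0.20 ± 0.12 and did not pass (adjusted p = 0.653 and 0.288). The Prkaa2 value turned to -0.05 without intestine YMT replicate 1, was 0.13 without intestine OMT replicate 1 and 0.53 without intestine YMT replicate 3.

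Whether both tissues were normalized together is not stated, so levels across tissues are given side by side only. Sirt3 and Ulk1 read higher on every liver array than on any intestine array, and Prkaa1 and Sirt1 higher on every intestine array. For Ulk1 the order of the group means was liver YMT, liver OMT, intestine YMT and intestine OMT, with no overlap between neighbours. Sirt3 ran from liver YMT to liver OMT, then to intestine OMT and intestine YMT, and only the step between tissues was free of overlap. For Prkaa1 and Sirt1 the order was intestine YMT, intestine OMT, liver YMT and liver OMT, again with overlap at all steps but that between tissues. Ranges of the other 6 genes overlapped between tissues.

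**Figure D3:**
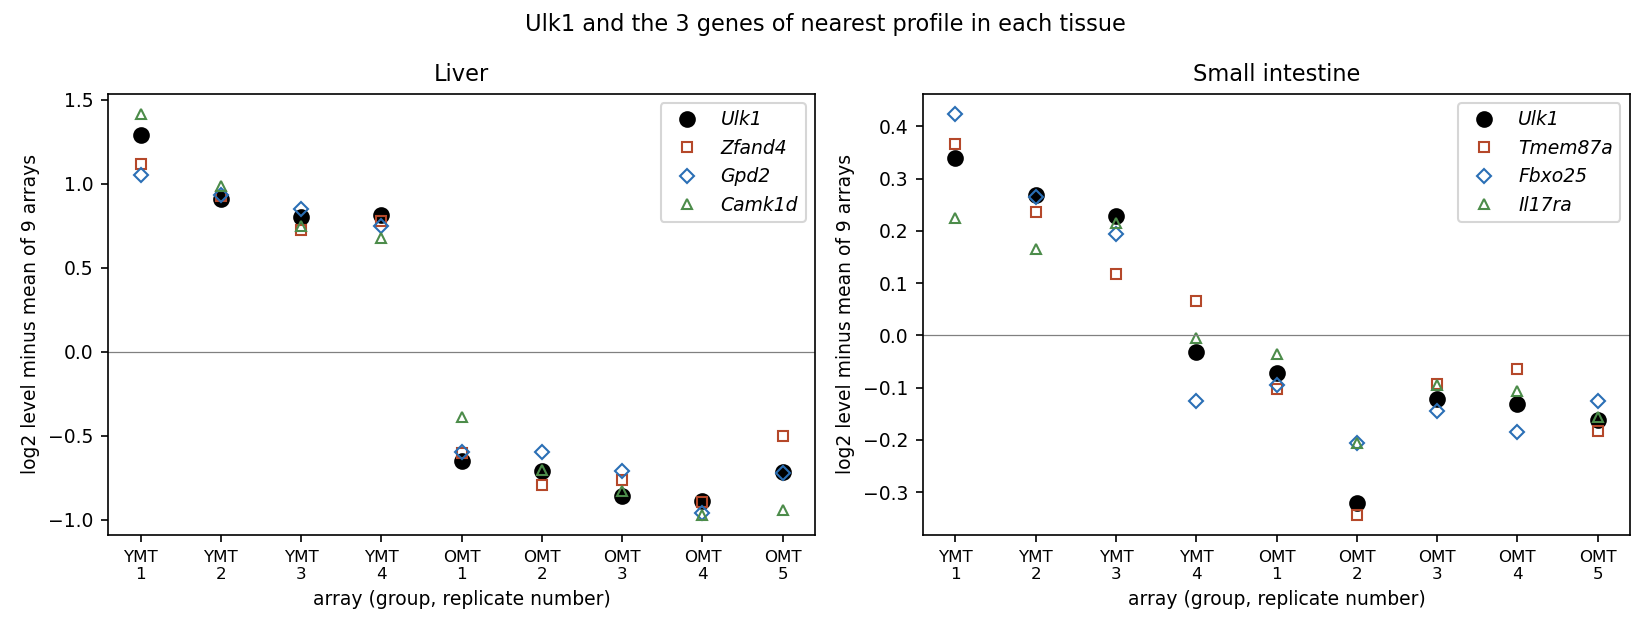
Log2 level minus the gene's mean over 9 arrays (y axis) on each array (x axis) for Ulk1 (filled) and the 3 genes of nearest profile in liver (left) and small intestine (right). Transcripts with only a clone, Gm, Rik or LOC name were passed over. In liver all 4 genes are high on the 4 YMT arrays and low on the 5 OMT arrays.

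In the search for genes with a profile like that of Ulk1, transcripts with only a clone, Gm, Rik or LOC name were passed over in both tissues. Of the other genes, the nearest over the 9 livers were Zfand4, Gpd2, the mitochondrial glycerol-3-phosphate dehydrogenase, and Camk1d, a calcium-dependent kinase. Likeness was the root mean square difference of log2 values after centring each gene, and it was 0.107, 0.109 and 0.136 for these genes against a median of 0.875 over all genes tested. Their own differences were -1.60 ± 0.10, -1.61 ± 0.09 and -1.73 ± 0.16. In intestine, where Ulk1 varied less, the nearest were Tmem87a (0.059), Fbxo25 (0.063) and Il17ra (0.067), against a median of 0.259. Being nearest follows largely from the donor difference and says nothing of shared control.

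The other genes of the pathway were taken from 11 lists, which together with the 10 genes held 187 genes tested in liver and 180 in intestine. Some genes, such as Ulk1, stand in several lists. In liver 15 rose and 25 fell, 21.4% against 19.2% of all genes, and the median difference was -0.004. In intestine 1 rose and 11 fell, 6.67% against 4.14%, with a median of -0.095. Of the 12 genes called in intestine, 2 (16.7%) were also called in liver, Ctsb and Gla, which are 5% of the 40 called there. For the difference between tissues, 33 of 178 were called (18.5%), 20 with the more positive difference in liver and 13 in intestine.

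**Figure D4:**
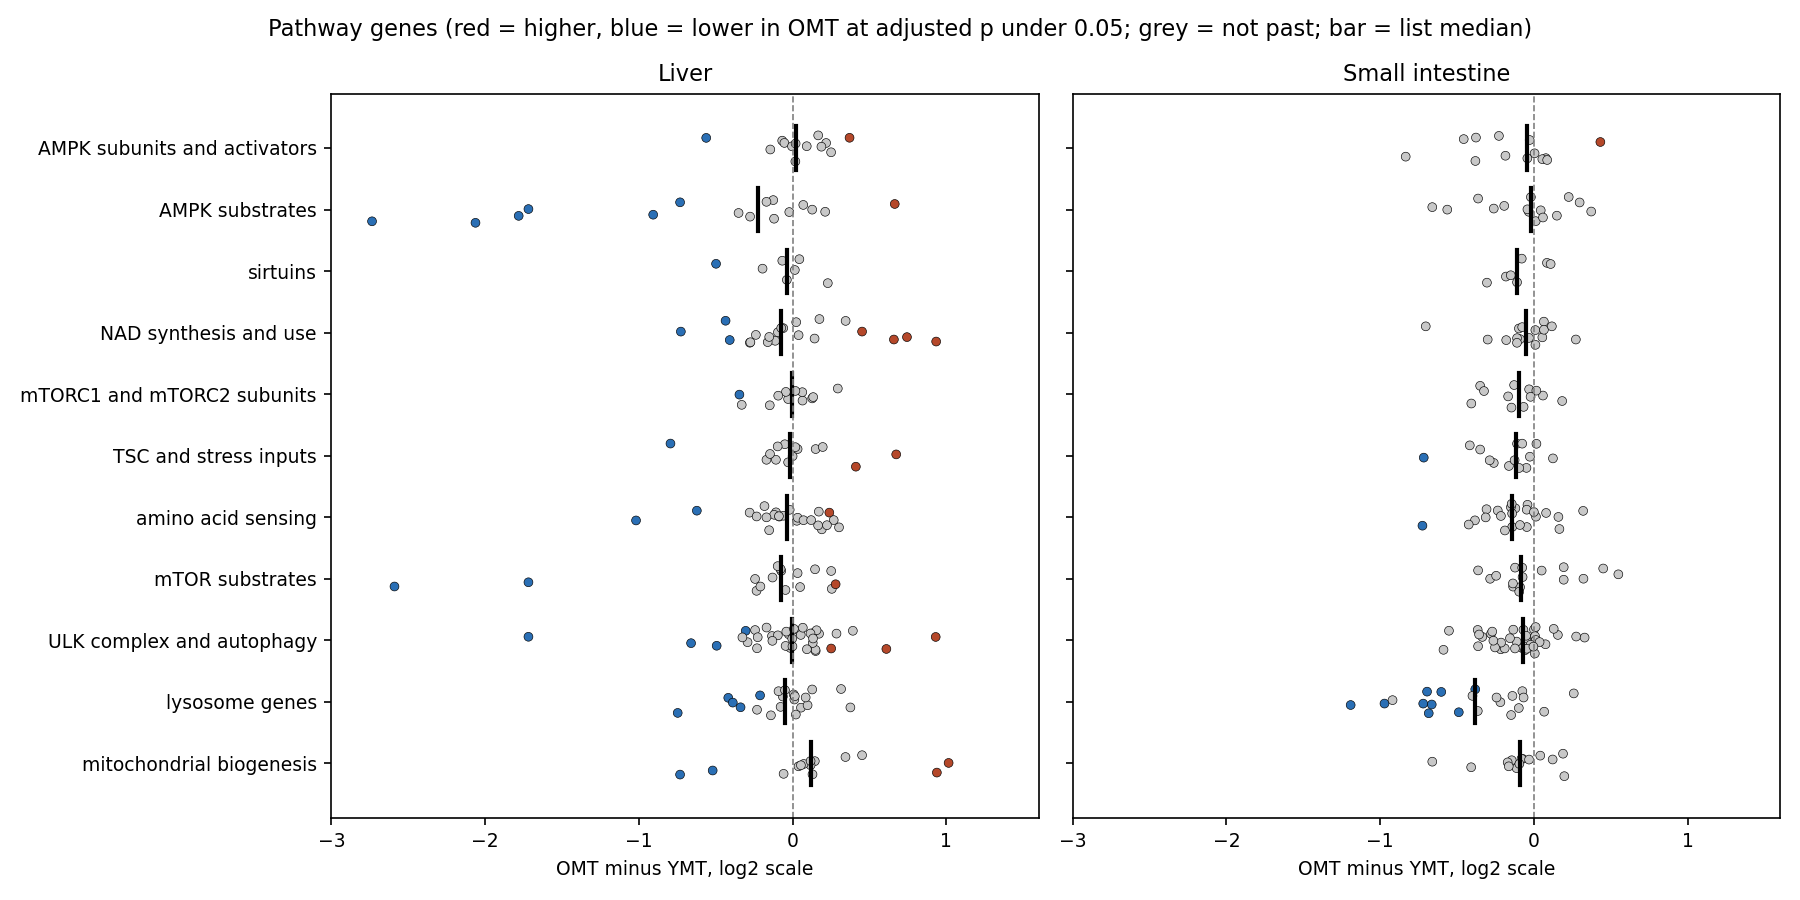
Difference of OMT minus YMT on the log2 scale (x axis) for each tested gene of the 11 pathway lists (rows) in liver (left) and small intestine (right); red points rose and blue points fell in OMT recipients (adjusted p under 0.05), grey points did not pass, and black bars are list medians. Calls fall on both sides of 0 in most liver rows, and in intestine they lie mostly in the row of lysosome genes.

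Of 13 tested AMPK subunits and activators, 1 fell in liver, Prkaa2, and 1 rose, Cab39l, which encodes an MO25 protein that supports LKB1 (0.37 ± 0.12, adjusted p = 0.0461, limma). This is 15.4% of the list, beside 19.2% of all genes in liver. Of 16 AMPK substrates 6 fell and 1 rose (43.8%, beside 19.2% of all genes), with a median of -0.22. The falls included both acetyl-CoA carboxylases, Acacb (6.05 ± 0.34 in OMT, 8.79 ± 0.57 in YMT, -2.74 ± 0.25) and Acaca (-2.06 ± 0.25), and the liver glycogen synthase Gys2 (-0.91 ± 0.12), beside Ulk1. Both carboxylases make malonyl-CoA. Of 7 sirtuins 1 fell in liver, the mitochondrial desuccinylase Sirt5 (-0.50 ± 0.11, adjusted p = 0.0113), or 14.3% of the list.

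Genes of NAD synthesis and use, which supply the sirtuins' cosubstrate, went both ways in liver, with 4 rises and 3 falls among 21. These calls were 33.3% of the list, beside 19.2% of all genes in liver. Nampt, the rate-limiting enzyme of the salvage route from nicotinamide, rose from 7.68 ± 0.32 to 8.61 ± 0.18 (0.93 ± 0.15, adjusted p = 0.00148, limma). Naprt, which starts the route from nicotinic acid, rose by 0.74 ± 0.10, and Nnt, the mitochondrial transhydrogenase, by 0.45 ± 0.07. Haao, an enzyme of the route from tryptophan, fell by 0.73 ± 0.07. In intestine none of 16 passed, and Nampt was at -0.18 ± 0.14 (adjusted p = 0.459).

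Of 12 subunits of the mTOR complexes, Mtor alone passed in liver, and none did without OMT replicates 1 and 2. Among 14 upstream inputs, Ddit4, a stress-induced inhibitor of mTORC1 (0.67 ± 0.15), and Rheb, the small GTPase that activates it (0.41 ± 0.12, adjusted p = 0.0368, limma), rose. Sesn3, a sestrin that restrains mTORC1, fell by 0.79 ± 0.12. Of 24 genes of amino acid sensing 2 fell, the folliculin partner Fnip2 (6.81 ± 0.09 in OMT, 7.83 ± 0.10 in YMT, -1.02 ± 0.07, adjusted p = 1.51e-05) and folliculin itself, Flcn (-0.62 ± 0.11). The Ragulator subunit Lamtor3 rose by 0.24 ± 0.07. Of 16 mTOR substrates Ulk1 and the phosphatidate phosphatase Lpin1 fell (-2.59 ± 0.26 for Lpin1), and the translation factor Eif4b rose (0.28 ± 0.09, adjusted p = 0.0464). Calls were 8.33% of the complex subunits and 21.4% of the upstream inputs. For amino acid sensing and mTOR substrates they were 12.5% and 18.8%, beside 19.2% of all genes in liver.

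Of 37 genes of the ULK complex and autophagy, 4 fell and 3 rose in liver, 18.9% against the background of 19.2%, with a median of -0.001. The relative Ulk2 fell by 0.49 ± 0.09 and the phosphoinositide-binding Wipi1 by 0.66 ± 0.12, while Atg16l1, needed to lipidate LC3, rose by 0.61 ± 0.10 (adjusted p = 0.00201, limma). Of 21 lysosome genes 5 fell and none rose, such as the cholesterol exporter Npc1 (-0.75 ± 0.10), the calcium channel Mcoln1 (-0.39 ± 0.07), Ctsb (-0.42 ± 0.09) and Gla (-0.34 ± 0.09), with a median of -0.050. Of 14 genes of mitochondrial biogenesis 2 fell, the coactivators Ppargc1a (-0.73 ± 0.11) and Ppargc1b (-0.52 ± 0.11). The mitochondrial DNA helicase Twnk (1.02 ± 0.09) and the rRNA methyltransferase Tfb1m (0.94 ± 0.08) rose. Calls were 23.8% of the lysosome genes and 28.6% of the genes of mitochondrial biogenesis, beside 19.2% of all genes.

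Of the 28 liver genes named from the lists by the rule beside the 10, 23 kept their call without each array in turn. Cab39l, Rheb, Lamtor3, Eif4b and Gla lost it without at least 1 array, each with an adjusted p of at most 0.126 (limma), and Gla fell while the other 4 rose. Those 4 rises also did not pass with each array centred on its median (adjusted p = 0.0970, 0.0666, 0.110 and 0.0761 for Cab39l, Rheb, Lamtor3 and Eif4b) or with no level filter.

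In the intestine the lysosome list held 9 of the 11 falls: 9 of 21 lysosome genes fell and none rose, with a median of -0.38 beside -0.022 for all genes. Over all genes in intestine 4.14% were called and 3.1% were lower. The cathepsin Ctsb fell from 11.29 ± 0.06 to 10.60 ± 0.22 (-0.69 ± 0.11, adjusted p = 0.00954, limma). The hexosaminidase subunit Hexa fell by 0.49 ± 0.09, prosaposin (Psap) by 0.72 ± 0.13 and the peptidase Tpp1 by 0.97 ± 0.19. None of these 4 genes overlapped between the groups, which follows largely from naming the 4 of smallest p in the list. Over all genes tested in intestine 9.65% did not overlap, 6.84% with OMT lower. On the same arrays 2 of 5 T and NK cell markers fell (7.14 to 7.91 in OMT, 7.97 to 8.66 in YMT), 1 of 6 goblet cell markers fell (10.29 to 10.75, 10.81 to 11.05) and none of 6 macrophage markers passed (5.43 to 5.72, 5.57 to 5.84). Their part in the lysosome values was not tested. Without OMT replicates 1 and 2 the count was 4 of 21.

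The other intestinal calls were the AMPK regulatory subunit Prkag2, which rose (0.43 ± 0.10, adjusted p = 0.0457, limma), the sestrin Sesn1 (-0.72 ± 0.14) and the folliculin partner Fnip1 (-0.72 ± 0.13), which fell. No gene passed among 15 AMPK substrates, 7 sirtuins, 12 subunits of the mTOR complexes, 16 mTOR substrates, 37 autophagy genes and 14 genes of mitochondrial biogenesis (limma). Some of these counts depended on the settings: over 6 alternatives, AMPK substrates held up to 3 calls (above 0 in 5 of the 6), autophagy genes up to 4 (in 4 of the 6), mTOR substrates up to 1 (in 2 of the 6) and mTOR complex subunits up to 1 (in 1 of the 6). The sirtuins and the genes of mitochondrial biogenesis held 0 in all 6. Of the 7 named genes Ctsb kept its call without each array in turn, and Prkag2, Sesn1, Fnip1, Tpp1, Hexa and Psap lost it without at least 1 of the arrays. Where the call was lost without 1 array, Hexa was at -0.50, Tpp1 at -0.93 to -0.997 and Sesn1 at -0.67 to -0.72. Fnip1 was then at -0.65 to -0.705, Psap at -0.68 to -0.75 and Prkag2 at 0.365 to 0.46. Without OMT replicates 1 and 2 together 5 of the 7 lost their call, namely Fnip1, Hexa, Prkag2, Psap and Sesn1, with Psap at -0.62.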

How the data were processed

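RNA (250 ng per sample) was hybridised to Affymetrix arrays. The series matrix holds log2 values that the authors deposited; the submitters' processing notes name RMA and Expression Console without a version. The log base was taken from the range of the values. RMA narrows differences of dim probe sets, and it is not stated whether both tissues were normalized together.

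Of 41345 probe sets 23521 have 1 gene symbol. RefSeq (GRCm38.p6) held 23328 of these by gene identifier. A probe set was tested in a tissue if at least 4 of the tissue's 9 arrays read above their own median, and of several probe sets for a gene the one with the highest mean was used. OMT and YMT were compared within each tissue with limma 3.58.1 in R 4.3.3 (lmFit, eBayes, two-sided), with Benjamini-Hochberg adjustment over all genes tested and a threshold of 0.05. The difference between tissues was a contrast in a fit of all 18 arrays. The limma fits and their adjustment, within each tissue and between tissues, were also run on simulated data with known changes. The other steps were not. Figures were drawn with matplotlib 3.10.9.

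The 10 genes, the lists and the tests were chosen with earlier results of these data known. Named beside the 10 genes were up to 4 genes of smallest p past the threshold per list and tissue, Fgf21, Alb, Vil1 and the 3 genes of nearest profile to the member of smallest p in each tissue. For the last, transcripts with only a clone, Gm, Rik or LOC name were passed over. Alternatives were other filters, moderation, scalings, probe set choices, array weights, all 18 arrays in the fit, the replicate number as a block, a threshold of 0.10 and arrays left out. The block pairs OMT and YMT arrays of the same number within a tissue, so OMT replicate 5 is left out of those fits. Centring on the median of the genes tested, and leaving out arrays for the genes named from the lists, were added after seeing the data. The number of arrays limits the precision.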

Additional observations from a re-analysis of the deposited data

Results flagged for a closer look

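The fall of Ulk1 in OMT recipients was unequal across the tissues, at -1.36 for liver minus intestine, and passed the test of that difference (adjusted p = 7.83e-06, limma). Of 110 groups of arrays checked for 1 value far from the rest of its group, 7 held one, and chance gives about 1 in 20. Among the 10 genes this was Rptor in YMT intestines, at 7.24 on replicate 3 and 7.39 on the other 3 arrays.

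Among the genes named from the lists, Sesn1 read 8.40 on YMT intestine replicate 4 and 8.81 to 8.87 on the other YMT arrays. In YMT livers Gla read 5.70 on replicate 4 against 5.98 to 6.01, and Sesn3 7.45 on replicate 1 against 7.08 to 7.14. In OMT livers Mcoln1 read 7.37 on replicate 2 against 7.17 to 7.21, Ppargc1b 5.40 on replicate 2 against 4.92 to 5.03, and Ulk2 7.61 on replicate 4 against 7.92 to 7.99.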

How the results depend on the processing

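None of the 10 genes' differences that passed changed direction under any alternative run. In liver the count of 3 falls was 2 with all 18 arrays in the fit (Prkaa2 lost) and without OMT replicates 1 and 2 (Mtor lost), and 2 to 3 with each array left out. In intestine the count of 0 was 3 with the 75th percentile filter, 4 with all 18 arrays, 3 with array weights, 1 with each array centred on its median (Ulk1), 3 at a threshold of 0.10, and 0 to 1 with each array left out. For the difference between tissues the count of 1 was 2 at a threshold of 0.10 and 1 to 2 with each array left out. Over all genes, the liver count of 2563 was 1459 with the replicate block and 1800 to 2680 with each array left out. The replicate block also leaves out OMT replicate 5, and without that array alone the liver count was 1876. The intestine count of 548 was 310 without a level filter, 1445 with all 18 arrays, 1172 with array weights, 1331 at a threshold of 0.10, 234 without OMT replicates 1 and 2 together, and 150 to 636 with each array left out. The causes were not tested.

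Replicate numbers did not pair the arrays, and not every array correlated best with its own number: deviations of same-numbered arrays correlated at 0.092, -0.18, -0.074 and 0.017 in liver and -0.061, 0.082, 0.18 and 0.32 in intestine. With the replicate block the 10 genes held 3 calls in liver, 0 in intestine and 1 between tissues, and the intestine count over all genes was 458. Fits that leave out arrays test fewer samples. Values near the arrays' medians limit how small a difference can be seen.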
